A study of Mus musculus with 4 samples.

Results

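Genes of DNA replication and DNA repair were examined for occupancy by the transcription factor Deaf1 in C2C12, a mouse cell line of myoblasts, the precursors of muscle fibres. The genes were taken by symbol alone: every protein-coding gene of the GRCm38 annotation named Mcm, Rfc, Orc, Rad, Xrcc, Ercc, Msh or Rpa with a digit after it, or with a name starting in Fanc. This rule gave 75 genes of 21887. Occupancy came from ChIP-seq, the sequencing of DNA fragments pulled down with an antibody, in growing cells with no genetic change or treatment in the labels. There were 4 libraries, 2 pulled down with an antibody against Deaf1 and 2 input libraries without antibody. All libraries are of 1 condition, and no response of Deaf1 to a treatment can be read from them. The labels do not say whether the replicates came from separate cultures, and they describe both formaldehyde fixation and native ChIP-seq, a term for unfixed chromatin.

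A cell copies its genome from origins that are marked by the origin recognition complex (Orc). The complex loads the ring of Mcm proteins that later unwinds the DNA, replication factor C (Rfc) loads the sliding clamp of the polymerases, and replication protein A (Rpa) covers the exposed single strands. Repair uses the Ercc proteins to cut out bulky lesions, the Msh proteins to find mismatches, the Xrcc proteins to join breaks, several Rad proteins to copy from a sister chromatid and the Fanconi anaemia (Fanc) proteins to undo crosslinks. Promoters of many replication genes are known targets of E2F factors, which switch them on before S phase, and of the CCAAT-binding factor NF-Y. Deaf1 binds DNA through its SAND domain, for which TTCG is the known core sequence.

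A gene was counted when a region lay within 1 kb of either end of its annotated span. The main list was the authors' combined list of 1550 regions, in which each region has a peak in both replicates. It carries for each region the irreproducible discovery rate (IDR), an estimate of the chance that the region's rank does not repeat between replicates. Of the 75 genes, 16 (21.3%) had such a region, and of the other 21812 protein-coding genes 6.94% had one. Each replicate's own list gave the same order of shares. Replicate 1 had a peak at 18 genes (24.0%), where 7.47% of the other genes had one. Replicate 2 had a peak at 22 genes (29.3%), where 11.2% of the other genes had one. Only regions with an IDR of at most 0.05 (a score of at least 540) left 7 genes (9.33%), against 3.11% of the other genes. These shares were not tested, since the genes were chosen with earlier results of these data known.

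Replicate 1 listed 1860 peaks and replicate 2 listed 3126. Summit heights in fragments, and the local background in the same unit, were recovered from the deposited fold and p. The median summit held 22 and 23 fragments, and the lowest background was 1.80 and 2.09 fragments. A gene with no listed peak is one below the peak caller's threshold at this depth, and no level was measured for it. Intervals on fragments below are exact Poisson intervals at the 95% level and cover counting error only.

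The families differed in how many of their genes had a region of the combined list. It was 3 of 10 for Mcm, 3 of 5 for Rfc, 1 of 6 for Orc and 2 of 3 for Rpa. It was 3 of 20 for Rad, 1 of 6 for Xrcc, 2 of 9 for Ercc, 1 of 11 for Fanc and 0 of 5 for Msh. The 4 families named for replication proteins together had 9 of 24 (37.5%), and the 5 named for repair had 7 of 51 (13.7%). The 9 include Mcm3ap, of messenger RNA export, and Mcm8, of repair by recombination. At Mcm7, Mcm8 and Rpa3, and in the repair families at Xrcc4, the summit was nearer to an end of another gene than to an end of the gene's own span. The Mcm7 summit was nevertheless 7 bp upstream of a listed start of Mcm7 inside that span. Families this small give coarse shares, and the difference between them was not tested. A further 8 genes had a peak in 1 replicate only, 2 of them in replicate 1 and 6 in replicate 2. Of the 21812 other genes, 100 had a peak in replicate 1 only and 910 in replicate 2 only, the longer list. The remaining 51 of the 75 genes had no peak at a gene end in either list, and neither had 19273 of the other genes.

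**Figure D1:**
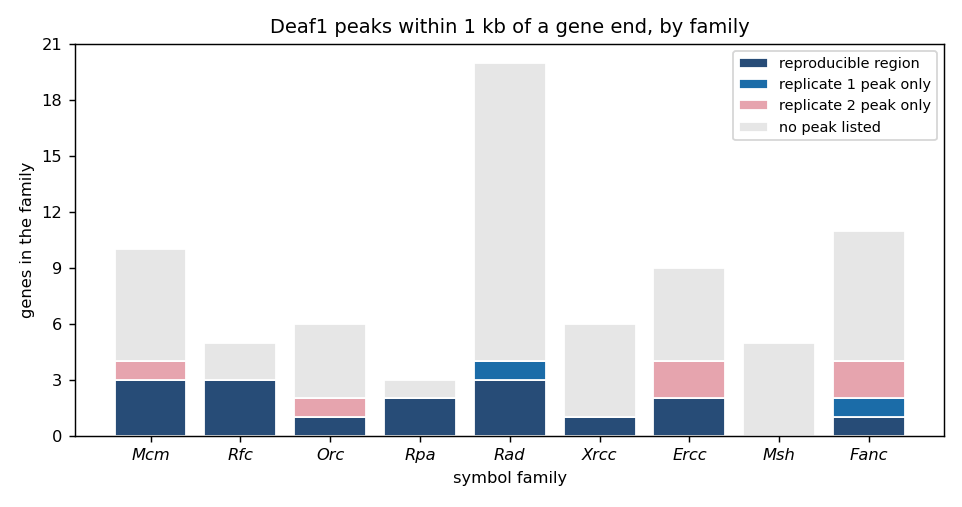
Number of genes (vertical axis) in each symbol family (horizontal axis), split by whether a reproducible region, a peak of 1 replicate only or no listed peak lay within 1 kb of a gene end. Rfc and Rpa have a region at 3 of 5 and 2 of 3 genes, and Msh at 0 of 5.

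Among the origin proteins, Orc2, a core subunit of the origin recognition complex, had a region at chr1:58504934-58505185. Its fold enrichment, which is the authors' deposited ratio of summit height to local background, was 7.09 in replicate 1 and 11.8 in replicate 2. The mean was 9.43 ± 3.31 (SD, n = 2), on 31 fragments (interval 21.1 to 44.0) and 37 fragments (26.1 to 51.0). The background was 3.51 fragments in replicate 1 and 2.23 in replicate 2, and the intervals of the summit heights overlapped. Orc3 had a peak in replicate 2 only, with a fold of 10.4 on 31 fragments. That summit lay 8 bp downstream of the listed start of Orc3 and 23 bp from an end of Rars2, a mitochondrial arginyl-tRNA synthetase. It was the strongest of the peaks found in 1 replicate only.

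Orc1 and Orc4 had a region that the rule did not count, because their listed starts lie inside the annotated span. The Orc1 region was 3381 bp from the nearer end of the span, but its replicate 2 summit was 145 bp upstream of a listed start, with folds of 8.92 and 6.98. The Orc4 region was 3407 bp from the nearer end and 190 bp upstream of a listed start, with folds of 7.50 and 7.45. Orc5 and Orc6 had no peak in either list.

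In the Mcm group the strongest region belonged to Mcm3ap, which shares a name with the helicase but encodes a protein of messenger RNA export. Its region, chr10:76468804-76468967, had a fold of 11.3 in replicate 1 and 18.2 in replicate 2. The mean of 14.7 ± 4.9 (SD, n = 2) rested on 40 fragments (28.6 to 54.5) and 56 fragments (42.3 to 72.7). The region's IDR of 0.0095 was the lowest of the 16 genes. It also reached an end of Ybey, a gene for a ribosomal RNA maturation factor, whose end was 237 bp from the summit.

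Mcm8 encodes a relative of the replicative helicase that acts in repair by recombination. Its region, chr2:132815989-132816213, had folds of 11.4 and 13.6 (mean 12.5 ± 1.5, SD, n = 2) and an IDR of 0.012. The fragments were 31 (21.1 to 44.0) and 41 (29.4 to 55.6), and the intervals overlapped. The summit was nearer to an end of Trmt6, a subunit of a tRNA methyltransferase, at 10 bp, than to that of Mcm8, at 73 bp, and the data do not assign it to either.

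Mcm7 was the only 1 of the 6 subunits of the replicative ring (Mcm2 to Mcm7) with a region in the combined list. Its region at chr5:138171059-138171339 was weaker, with folds of 5.78 and 7.43 on 20 and 28 fragments and an IDR of 0.12. It lay 772 bp from the end of the span, while its replicate 2 summit was 7 bp upstream of a second listed start of Mcm7. Ap4m1, a subunit of an adaptor complex of vesicle transport, was also in reach. Mcm3 had 2 peaks in replicate 2 only, with folds of 7.45 and 6.15. Mcm2, Mcm4, Mcm5 and Mcm6, and also Mcm9 and Mcm10, had none.

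The clamp loader had regions at 3 of its 5 subunits, with replicate 2 summits 25 to 38 bp from an end of the span. Rfc3 had folds of 7.50 and 9.07, a mean of 8.28 ± 1.11 (SD, n = 2), on 20 and 27 fragments. Rfc4 had folds of 6.03 and 10.0, a mean of 8.01 ± 2.81 (SD, n = 2), on 19 and 35 fragments. Rfc2 had 5.50 and 5.55, the lowest mean of the 16 genes, and an IDR of 0.51, the highest in the list. Rfc3 missed the IDR limit narrowly, with a score of 536, so no clamp loader gene passed it. Rfc1, the large subunit, and Rfc5 had no peak.

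Of the 3 subunits of replication protein A, Rpa2 and Rpa3 had a region and Rpa1, the large DNA-binding subunit, had none. The Rpa2 folds were 7.28 and 10.8, a mean of 9.06 ± 2.51 (SD, n = 2), on 22 fragments (13.8 to 33.3) and 38 fragments (26.9 to 52.2). Its summits lay 305 and 300 bp upstream of the listed start, farther than at Orc2, Mcm8, Mcm3ap, Rfc3, Rfc4 and Rpa3. The Rpa3 folds were 7.65 and 6.66, and this was 1 of 2 genes, with Ercc4, at which replicate 1 was the higher. The Rpa3 summit was nearer to an end of Umad1 (9 bp) than to that of Rpa3 (138 bp).

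The strongest region of all 75 genes was at Ercc4, which encodes the catalytic partner in the endonuclease that cuts 5′ of a bulky lesion. The region, chr16:13108622-13111282, was 2661 bp wide, whereas those of the other genes were at most 355 bp wide. Its fold was 34.3 in replicate 1 and 29.7 in replicate 2, a mean of 32.0 ± 3.2 (SD, n = 2) and the 18th highest of 1545 regions on assembled chromosomes. The summits held 95 fragments (76.9 to 116) and 115 fragments (94.9 to 138) and lay 167 and 166 bp downstream of the listed start. The region was merged from 2 peaks of replicate 1 and 1 of replicate 2, and had an IDR of 0.34. A second, weak region of Ercc4 lay just inside the 1 kb limit, 998 bp from the end of the span, with folds of 5.00 and 7.45.

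Ercc3, a helicase of the general transcription and repair factor TFIIH, had a region at chr18:32240173-32240473. Its folds were 8.74 and 13.0, a mean of 10.9 ± 3.0 (SD, n = 2), on 28 and 47 fragments, with an IDR of 0.018. Ercc1, the partner of Ercc4, and Ercc5, the endonuclease of the 3′ side, had a peak in replicate 2 only, with folds of 5.83 and 5.57. Both summits were near a listed start, 19 bp and 139 bp downstream of it, although 1023 and 935 bp from the nearer end of the span. Ercc2, Ercc6, Ercc8, Ercc6l and Ercc6l2 had none.

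The Rad genes are a mixed group, since the symbol stands for radiation sensitivity and not for 1 pathway. Rad1, a subunit of the checkpoint clamp, had folds of 4.78 and 9.11, the widest ratio between replicates of the 16 genes at 1.90. The fragments were 29 (19.4 to 41.6) and 35 (24.4 to 48.7), and it was the background that differed more, 5.27 against 2.95. The region also reached an end of Brix1, a gene of ribosome assembly. Rad51d, a protein of repair by recombination, had folds of 5.71 and 6.15. Its IDR was 0.51, on 15 and 18 fragments, and it thus repeated in both lists at the weak end of them.

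Rad54l2, a chromatin remodeller of the Rad54 type, had a replicate 1 peak with a fold of 6.42 on 17 fragments. Rad21, the kleisin subunit of cohesin, had a region inside its span that the rule did not count. That region was 1578 bp from the nearer end, with folds of 5.54 and 9.58. No promoter entry matched Rad21, so its distance to a listed start was not read. Rad genes without a peak at an end included Rad17, Rad18, Rad21l, Rad23b, Rad50, Rad51ap1, Rad51ap2, Rad51b, Rad51c, Rad52, Rad54b, Rad54l, Rad9a and Rad9b.

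Fancd2, the protein that the Fanconi anaemia core complex marks with ubiquitin, had folds of 7.70 and 9.48, averaging 8.59 ± 1.26 (SD, n = 2), and its IDR was 0.023. Its summits lay between the ends of Fancd2 and of Emc3, a subunit of the membrane protein insertion complex, 16 and 18 bp away in replicate 2. Fanci, the partner of Fancd2, had a replicate 2 peak with a fold of 8.42 on 25 fragments, 18 bp upstream of the listed start. Fance had a replicate 2 peak with a fold of 4.52, and Fancf a replicate 1 peak with a fold of 6.42. Fanca, Fancb, Fancc, Fancg, Fancl and Fancm had none, and neither had Fancd2os, a gene overlapping Fancd2 that is not a Fanconi protein.

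Xrcc4, the scaffold of the ligase that joins broken ends, was the only Xrcc gene with a region, with folds of 5.75 and 10.5 and an IDR of 0.035. The fragments in the replicates were close, 30 and 32, while the background was 4.39 and 2.14. The summit was 30 bp from an end of Tmem167 and 89 bp from that of Xrcc4. Xrcc1, Xrcc2, Xrcc3, Xrcc5 and Xrcc6 had none, and all 5 Msh genes were without a peak in either list.

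**Figure D2:**
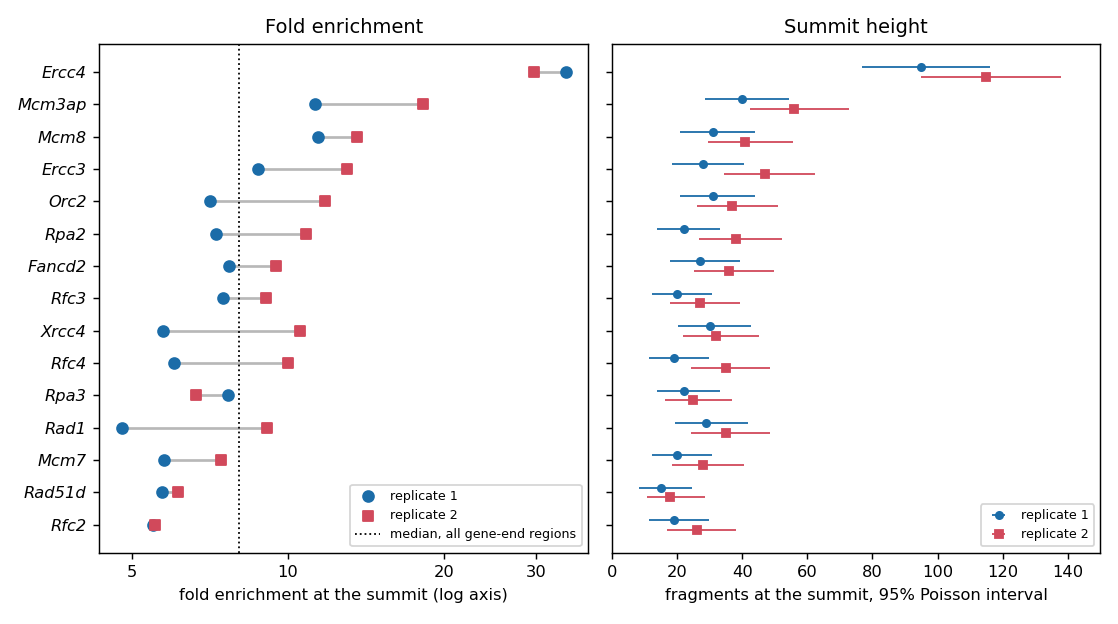
Fold enrichment (left, log axis) and fragments at the summit with 95% exact Poisson intervals (right) in each replicate for the strongest region of 15 of the 16 genes. The dotted line is the median mean fold of all gene-end regions, 8.05. Ercc4 stands apart in both replicates, and replicate 1 is the higher in fold only at Ercc4 and Rpa3.

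The strength of these regions was near that of other regions at gene ends. The median mean fold over the strongest region of each of the 16 genes was 8.21, and over all 1249 regions at gene ends it was 8.05. In replicate 1 the medians were 7.19 and 7.51, and in replicate 2 they were 9.74 and 8.42. The fold was higher in replicate 2 at 14 of the 16 genes (87.5%), and at 64.6% of all gene-end regions. The median ratio of replicate 2 to replicate 1 was 1.26 for the genes and 1.13 for all gene-end regions. An IDR of at most 0.05 was reached by 7 of the 17 regions at these genes (41.2%), and by 42.2% of regions at other gene ends. The median distance from summit to gene end was 30 bp at these genes and 40 bp at other gene ends.

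Many of the regions were shared with a neighbour. Of the 17 regions, 7 (41.2%) also lay within 1 kb of an end of another protein-coding gene, and 27.3% of the regions at other gene ends reached more than 1 gene. The neighbours were Ybey, Trmt6, Emc3, Tmem167, Umad1, Brix1 and Ap4m1. Of the 75 genes, 38 had an end of another gene within 1 kb of their own, whether occupied or not, and so had 5388 of 21812 other genes. Among genes with a close neighbour, 11 of 38 (28.9%) had a region, against 15.3% of other genes. Among those without, 5 of 37 (13.5%) had one, against 4.20% of other genes. Counting each region only for the gene whose end is nearest to its summit left 12 genes (16.0%), against 5.51% of other genes.

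Promoter sequences were taken from RefSeq (GRCm38.p6), in windows from 250 bases before to 50 bases after a listed start. An entry matched 60 of the 75 genes and 11 of the 16 with a region. Stretches around the replicate 2 summit are shown for 8 genes, because they let the letters under the summit be read. These 8 have the largest mean fold among the genes whose window held the summits of both replicates. Mcm7 also met this condition and is not shown. Each runs 5′ to 3′ along the gene's strand, with the summit at base 76. Capitals mark TTCG or its reverse complement CGAA, and CCGGAAG or its reverse complement CTTCCGG, the sequence preferred by ETS factors. A pair of them can overlap as CTTCCGGAAG.
Mcm3ap, chr10:76468802-76468931, plus strand: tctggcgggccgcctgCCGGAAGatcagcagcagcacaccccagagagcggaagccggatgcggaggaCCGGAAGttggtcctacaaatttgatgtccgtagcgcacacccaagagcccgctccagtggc
Mcm8, chr2:132815989-132816139, plus strand: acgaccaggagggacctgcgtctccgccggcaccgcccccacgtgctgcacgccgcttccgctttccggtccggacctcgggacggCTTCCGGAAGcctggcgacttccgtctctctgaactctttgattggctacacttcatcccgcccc
Orc2, chr1:58505080-58505207, minus strand: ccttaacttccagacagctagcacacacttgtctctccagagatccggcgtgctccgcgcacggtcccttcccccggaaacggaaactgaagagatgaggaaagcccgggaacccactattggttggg
Rfc3, chr5:151651179-151651321, minus strand: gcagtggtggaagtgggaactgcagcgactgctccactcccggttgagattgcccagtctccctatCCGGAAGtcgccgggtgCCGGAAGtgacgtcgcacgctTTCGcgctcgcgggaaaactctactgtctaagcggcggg
Xrcc4, chr13:90089622-90089772, minus strand: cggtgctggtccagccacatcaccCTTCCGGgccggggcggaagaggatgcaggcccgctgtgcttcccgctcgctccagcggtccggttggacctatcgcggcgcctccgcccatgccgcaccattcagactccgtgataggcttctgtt
Rfc4, chr16:23127701-23127830, minus strand: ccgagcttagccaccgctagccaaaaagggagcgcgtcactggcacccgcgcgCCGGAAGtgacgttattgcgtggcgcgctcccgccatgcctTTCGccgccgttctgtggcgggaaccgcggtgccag
Rpa3, chr6:8259204-8259354, minus strand: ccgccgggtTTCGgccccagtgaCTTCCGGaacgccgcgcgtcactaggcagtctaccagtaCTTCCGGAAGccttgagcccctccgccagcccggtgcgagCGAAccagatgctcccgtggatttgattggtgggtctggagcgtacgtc
Rad1, chr15:10485953-10486047, plus strand: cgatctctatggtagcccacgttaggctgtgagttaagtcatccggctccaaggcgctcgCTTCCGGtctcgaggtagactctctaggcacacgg

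The ETS-type sequence was within 20 bp of the summit in 6 of these 8 stretches. At Mcm3ap its centre was 4 bp from the summit, at Rfc3 6 bp, at Rpa3 7 bp, at Rad1 12 bp, at Mcm8 14 bp and at Rfc4 19 bp. Xrcc4 had it 48 bp away, and Orc2 had none. The Deaf1 core TTCG was absent from the stretches of Mcm3ap, Mcm8, Orc2, Xrcc4 and Rad1. At Rfc3, Rfc4 and Rpa3 it was present 20.5 to 30.5 bp from the summit. The window of Mcm7, which is not shown, held no ETS-type sequence, and its nearest TTCG was 28.5 bp from the summit.

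The same count was made over promoter windows, with 1 window per gene at the listed start nearest to the 5′ end of its span. With or without a region follows the gene-end rule here, so Orc1 and Orc4 count as without. Mcm7 counts as with a region, although its window here is not the one that holds its summit. The window of Orc1 held CCGGAAG and that of Orc4 did not. CCGGAAG, on either strand, was in 8 of 11 windows (72.7%) of genes of the list with a region and in 10 of 49 (20.4%) of those without. Among other genes it was in 51.6% of 1228 windows with a region and in 8.84% of 16204 without, and in 11.9% of all 17492 windows. Seen the other way, 8 of 18 genes of the list with the sequence had a region (44.4%) and 3 of 42 without it (7.14%). For other genes these shares were 30.7% and 3.87%. A region within 1 kb of a listed start was found at 13 of the 60 genes with an entry (21.7%), Orc1 and Orc4 among them, against 7.26% of other genes with one.

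TTCG was in 9 of 11 windows (81.8%) of genes of the list with a region, in 36 of 49 (73.5%) of those without, and in 49.0% of all windows. Among other genes it was in 70.0% of windows with a region and in 47.3% without, and 10.1% of other genes with TTCG had a region against 4.14% without it. Windows of genes with a region also held more CpG dinucleotides, a property that moves with any motif containing CG. The median was 28 in genes of the list with a region and 24 in those without, and 22 and 12 in other genes. Within windows of 20 or more CpG, 7 of 15 genes of the list with CCGGAAG had a region (46.7%) and 2 of 26 without it (7.69%), and for other genes the shares were 33.2% and 7.18%. In the same windows, 7 of 34 genes of the list with TTCG had a region (20.6%) and 2 of 7 without it (28.6%). Other genes had one at 14.3% with TTCG and 9.07% without it. The part of CpG content in the remaining differences was not tested.

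**Figure D3:**
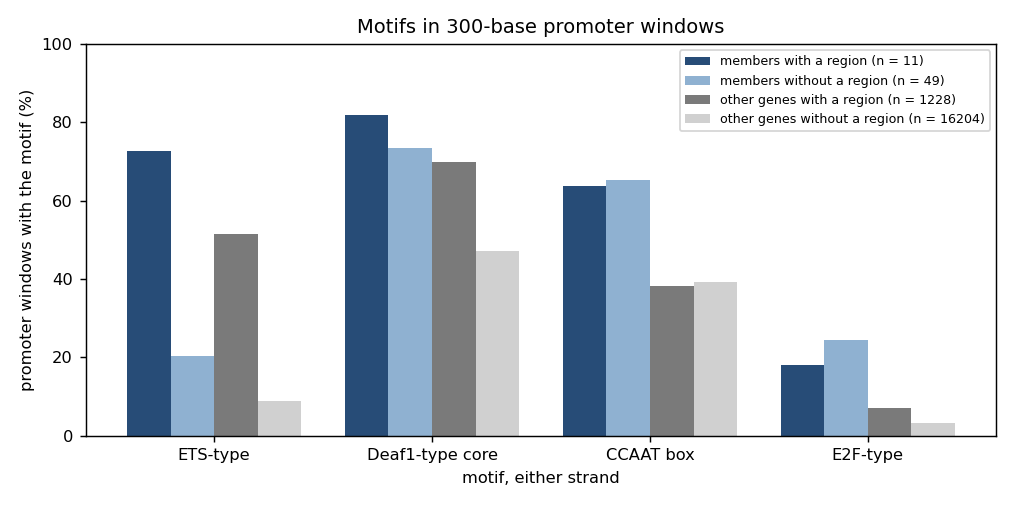
Share of promoter windows (vertical axis, percent) holding each motif on either strand (horizontal axis), for genes of the list and other genes with and without a reproducible region. The ETS-type sequence CCGGAAG is in 72.7% and 51.6% of windows with a region and in 20.4% and 8.84% of those without, while the other 3 motifs differ less between windows with and without a region.

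Sequences known from replication promoters were counted in the same windows. The E2F-type sequences GGCGGGAA or GGCGCGAA, the second of which contains CGAA, were in 14 of 60 windows of the list (23.3%) and in 3.62% of all windows. They were in 2 of 11 windows of genes with a region, those of Mcm7 and Rfc4. The Mcm7 window counted here held 4 TTCG, whereas the window holding its summit held 3. The Mcm7 match is thus not shown to lie in the window of its region. Of genes without a region, 12 of 49 windows held them, among them Mcm5, Mcm6, Rad51c, Msh6 and Fancm. Orc1 is also among the 12, although it has a region near a listed start that the gene-end rule does not count. CCAAT was in 39 of 60 windows of the list (65.0%) and in 39.2% of all, at about the same share with a region (63.6%) and without (65.3%). A match is a description of the letters and not a shown binding site.

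Distances to the summit were counted where the replicate 2 summit fell inside a promoter window with at least 20 bases on each side. This count was chosen after the motif shares were seen. CCGGAAG lay within 20 bp of the summit at 7 of 10 regions of the list (70.0%) and at 311 of 803 regions (38.7%) of other genes. The Fancd2 region is counted here, read from the window of Emc3. TTCG lay that near at 0 of 10 and at 135 of 803 (16.8%). The 0 depends on the limit of 20 bp, since the nearest TTCG was 20.5 bp away at Rfc4, 28.5 bp at Rpa3 and Mcm7 and 30.5 bp at Rfc3. At other genes the share of windows with CCGGAAG was 22.8% in the 20 bp just downstream of the summit and 0.897% in the bin from 100 to 80 bp upstream. The share with TTCG stayed between 8.03% and 12.0% across all bins.

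**Figure D4:**
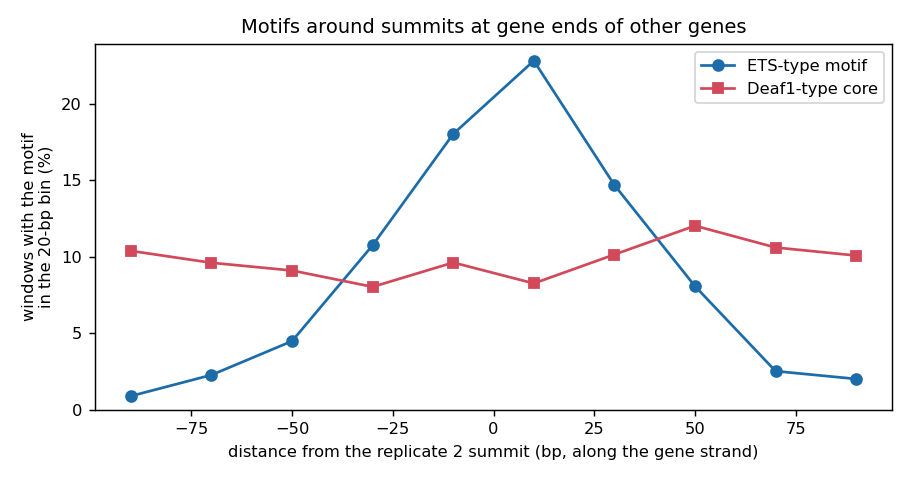
Share of promoter windows (vertical axis, percent) with the ETS-type or the Deaf1-type sequence in each 20 bp bin around the replicate 2 summit (horizontal axis, bp along the gene strand), for regions at gene ends of other genes. The ETS-type sequence peaks at the summit at 22.8%, and the Deaf1-type core runs level between 8.03% and 12.0%.

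Other genes of the same pathways, which the symbol rule leaves out, were read from a list of 135 genes. Of these, 18 (13.3%) had a region, again beside 6.94% of genes outside the symbol rule. Helicase loading and origin firing had 3 of 19 (Cdc45, Mtbp and Recql4), and polymerases, clamp and fork proteins had 2 of 27 (Rnaseh2b and Ssbp1). Double-strand break repair had 5 of 29 (Slx1b, Eme1, Rnf168, Nbn and Brca1), and base excision repair had 3 of 20 (Ogg1 and Nthl1 among them). Nucleotide excision repair had 4 of 14 (Gtf2h1, Gtf2h2, Gtf2h3 and Cdk7), and translesion and crosslink partners had 1 of 15 (Wdr48). The 7 checkpoint genes, Atm and Atr included, had none, and neither had the 4 mismatch repair partners of the Msh proteins. In replicate 1 alone, 1 of these 4 partners had a peak. With 4 and 5 genes and a share of 6.94% among other genes, counts of 0 say little about mismatch repair.

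Gtf2h1, Gtf2h2, Gtf2h3 and Cdk7 belong to TFIIH, the factor that also holds Ercc3. Its subunits Gtf2h4, Gtf2h5, Ccnh and Mnat1, which are on the same list, had no region, and Ercc2 had no peak. Gtf2h1 and Gtf2h2 were at the weak end, each with an IDR of 0.51, and the IDR of Cdk7 was 0.30. The replicate 2 summit of Gtf2h1 was nearer to an end of Hps5 (304 bp) than to that of Gtf2h1 (333 bp). The strongest of the listed genes was Gtf2h3, with folds of 17.8 and 20.1, a mean of 19.0 ± 1.6 (SD, n = 2) and the highest after Ercc4 among all the replication and repair genes examined. Its replicate 2 summit was nearer to an end of Eif2b1 (25 bp) than to that of Gtf2h3 (42 bp). Cdk7, the TFIIH kinase, had 5.82 and 12.0, on 16 and 36 fragments. Slx1b, a nuclease subunit, had 7.98 and 15.8, with the summit 56 bp from an end of Bola2 and 161 bp from that of Slx1b. Ogg1, the glycosylase for oxidised guanine, had 8.57 and 9.64. Rnaseh2b, a subunit of ribonuclease H2, had 7.06 and 10.0. Brca1 was at the weak end, with folds of 3.92 and 4.56 and an IDR of 0.51, and its summit was nearer to an end of Nbr1.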

How the data were processed

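The deposited files were a peak list per ChIP library and a list that combines the pair. Reads were handled with FastQC 0.11.8, BWA 0.7.17-r1198 and MACS2 2.1.2 on mm10, per the submitters' processing notes, which give no role, filter or duplicate handling. The deposited fold is a ratio of summit height over local background. The deposited p and q are −log10 values. The deposited score of the combined list is a logarithmic form of the IDR, 1 value for both replicates. Its 6 columns of single-sample values were not used, and each region took the strongest overlapping peak of each replicate's list.

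Whole-number fragments and background were recovered from the formulas of MACS2 (fold = (fragments + 1)/(background + 1), p the Poisson upper tail). For 100% of peaks exactly 1 whole number fitted, within 5.1e-05 in −log10 p. On summits simulated with these same formulas, 100% of 483 were recovered, which checks the calculation and not the formulas. The genes and ends came from RefSeq on GRCm38.p6, chromosomes 1 to 19, X and Y. Distances run from any base of a region to either end of the gene span. The 75 genes, the pathway list, its members to name and the motifs were chosen with earlier results of these data known. Of 136 pathway symbols 135 matched, 1 of them (H2ax) by an older symbol. Named genes were all with a region of the combined list, those of the 75 with a peak in 1 replicate, and values for the 6 strongest of the pathway list. Brca1 was added after its values were seen. No promoter entry matched 15 of the 75 genes, among them Ercc3, Fancd2, Rad51d and Rfc2. A few genes are counted but not reported here by name. Python 3.11.15 with pandas 2.3.3 and SciPy 1.17.1 was used. No test was run. Alternatives covered the window, the summit, the nearest gene, the gene span, listed starts, a stricter q, the IDR and each replicate alone.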

Additional observations from a re-analysis of the deposited data

How the results depend on the processing

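At an IDR score of at least 540 the genes with a region went from 16 to 7 and those of the pathway list from 18 to 6. These were 9.33% of the 75 genes and 4.44% of the pathway list, against 3.11% of genes outside the symbol rule. The Rfc and Rad genes then went from 3 to 0, and families with at least 1 gene from 8 to 6. Under the other settings the genes with a region of the combined list ran from 12 (nearest gene only) to 19 (window of 5 kb, or the whole span), and those with a peak from 13 to 21 in replicate 1 and from 17 to 25 in replicate 2. Their share was above that of other genes under each setting run.

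Without replicate 1 or without replicate 2, taking the other's peaks alone, the counts were 22 and 18 for the 75 genes, 33 and 21 for the pathway list, and 8 and 8 for the families. Without replicate 1 the Orc genes went from 1 to 2, the Ercc genes from 2 to 4 and the Fanc genes from 1 to 3. The pathway count thus rests on replicate 2 for its higher value. The ratio of the genes' median fold to that of all gene-end regions was 1.02, and was 1.16 without replicate 1 and 0.96 without replicate 2, so its side of 1 depends on the library. With −log10 p or fragments in place of fold, or the peak nearest to the gene end, it was 1.03, 1.07 and 1.02. TTCG within 100 bp of the start was in 54.5% of windows of genes with a region, against 81.8% in the whole window. Within 100 bp it was in 46.9% of windows of genes of the list without a region. Among other genes the shares were 48.2% with a region and 28.7% without. No paired analysis was possible because no values of the input libraries were used and the ChIP libraries form 1 group. With 15 to 56 fragments at the summits of the genes other than Ercc4, counting error limits comparisons of single genes between replicates.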
